A study of Mus musculus with 45 samples.

Results

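The 44 genes described here encode proteins that copy DNA: the factors that license and fire replication origins, the polymerases and primase, the sliding clamp and its loader, the proteins that coat single strands and join Okazaki fragments, the enzymes that supply deoxynucleotides, and a few chromatin and fork proteins. They were taken by their gene symbol in the annotation of an Affymetrix mouse array, each through its probe set with the highest mean over 45 arrays. Of the 44 listed genes 43 were measured, among 18193 genes with a named probe set, and Chaf1a was not analysed here. Values are log2 expression levels made with RMA, so that 1 unit is a 2-fold difference, and levels of different genes are not compared with each other because each probe set has its own response.

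The study followed mouse heart development in 15 groups of 3 arrays each, and asked how expression changes with stage and between the left and right ventricle. The groups were R1 embryonic stem cells (ESC), a mouse pluripotent line that served as the starting point, and tissue of wild-type CD1 mice. The mouse tissue was the entire embryo at E7.5 (days of gestation), the tubular heart at E8.5, and then the left (LV) and right (RV) ventricle separately. Ventricles were taken 4 times before birth, at E9.5 and E12.5 and later at E14.5 and E18.5, and again on day 3 of postnatal life and from adults. No group carried an engineered allele or a drug, and the age of the adults is not given in the sources used here. Each replicate was a pool before birth: 30 to 50 embryos or hearts for the stages through E9.5, 10 to 20 for E12.5 and E14.5, and 3 to 5 for E18.5. Day 3 and adult replicates were 1 heart each, frozen and pulverised. Stem cells, whole embryos, heart tubes and ventricles differ in tissue as well as in age, so stage and tissue cannot be told apart in the steps from stem cells to E9.5.

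Replication starts at origins that the origin recognition complex marks and on which Cdc6 and Cdt1 load the ring-shaped Mcm helicase. Cdc7 kinase with its activator Dbf4, together with Cdc45 and the GINS complex, turns the loaded ring into a moving helicase, and primase, the polymerases, the clamp Pcna and the ligase follow at the fork. Most of these genes are transcribed as cells enter S phase, with E2F factors as well-known regulators, and in the mammalian heart muscle cells divide before birth and largely stop soon after it.

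Array medians lay between 5.35 and 5.47, and 25% of all values were below 3.93. Cardiomyocyte markers averaged 5.75 in stem cells and 5.73 in E7.5 embryos and between 12.57 and 13.16 in every later group. On marker lists of other tissues 8 arrays stood more than 1.5 log2 units above the other replicates of their group: E7.5 replicate 2 on decidua and trophoblast genes, E8.5 replicate 2 on visceral endoderm genes, E9.5 RV replicate 1 on decidua and trophoblast genes, E14.5 LV replicate 2 and E18.5 LV replicate 2 on liver and visceral endoderm genes, E14.5 RV replicate 1 and E18.5 RV replicate 1 on liver genes, and adult RV replicate 2 on fibroblast genes. Results that rest on these arrays are given with and without them. For the steps between stages, same-numbered left and right ventricles were averaged, which gave 3 values per stage, and each standard deviation (SD) of a stage is over those 3 values.

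The promoters of these genes share sequence features that the choice of genes did not use, and 6 of them are shown. Mcm5, Hells and Rrm2 had the largest falls of their roles after birth on the probe sets used. Dbf4 had the largest fall among the helicase activators and Orc2 the smallest of all, also on the probe sets used. Mcm6 had the most matches shown here. RefSeq promoters (GRCm38.p6, 250 bases before to 50 after the start of the gene) were found for 36 of the 44 genes, 42 promoters in all. Each line gives the 250 bases before the start, 5′ to 3′ on the strand of the gene, and capitals mark matches to the E2F core on either strand (TTCCCGC or TTCGCGC or TTGCCGC or TTGGCGC, which overlap where the capitals run on).
Mcm5: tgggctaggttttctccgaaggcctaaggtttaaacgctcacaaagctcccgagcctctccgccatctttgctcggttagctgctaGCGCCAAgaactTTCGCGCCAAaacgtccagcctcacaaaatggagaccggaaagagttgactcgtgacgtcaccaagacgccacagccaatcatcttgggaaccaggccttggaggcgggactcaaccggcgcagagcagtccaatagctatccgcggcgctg
Mcm6: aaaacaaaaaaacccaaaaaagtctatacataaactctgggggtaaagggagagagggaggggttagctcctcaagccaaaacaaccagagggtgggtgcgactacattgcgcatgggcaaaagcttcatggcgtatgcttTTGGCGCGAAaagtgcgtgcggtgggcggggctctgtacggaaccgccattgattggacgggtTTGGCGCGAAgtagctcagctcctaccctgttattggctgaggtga
Hells: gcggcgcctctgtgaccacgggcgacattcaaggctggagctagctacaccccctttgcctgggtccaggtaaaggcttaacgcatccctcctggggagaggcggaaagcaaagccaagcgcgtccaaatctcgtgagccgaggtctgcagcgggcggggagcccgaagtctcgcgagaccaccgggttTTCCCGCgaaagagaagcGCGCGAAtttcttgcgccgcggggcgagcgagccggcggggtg
Rrm2: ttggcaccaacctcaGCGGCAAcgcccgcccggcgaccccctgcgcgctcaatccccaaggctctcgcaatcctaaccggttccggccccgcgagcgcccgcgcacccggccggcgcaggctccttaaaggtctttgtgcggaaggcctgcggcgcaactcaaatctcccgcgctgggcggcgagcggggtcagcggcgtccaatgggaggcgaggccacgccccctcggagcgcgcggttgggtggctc
Dbf4: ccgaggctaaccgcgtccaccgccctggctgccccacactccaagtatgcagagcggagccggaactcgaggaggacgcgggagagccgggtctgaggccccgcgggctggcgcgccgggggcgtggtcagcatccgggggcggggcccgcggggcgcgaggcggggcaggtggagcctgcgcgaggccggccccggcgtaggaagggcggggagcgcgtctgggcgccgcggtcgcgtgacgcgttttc
Orc2: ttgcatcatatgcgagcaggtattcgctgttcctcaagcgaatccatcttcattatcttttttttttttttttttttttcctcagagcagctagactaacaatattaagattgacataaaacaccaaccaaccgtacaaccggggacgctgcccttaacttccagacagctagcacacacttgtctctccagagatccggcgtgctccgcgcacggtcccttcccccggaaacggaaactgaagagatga
The Mcm5 stretch lies at chr8:75109259-75109508 on the + strand and holds 3 matches. The Mcm6 stretch, at chr1:128359706-128359955 on the − strand, holds 4 matches, in a pair of runs that each read the core in both directions. Hells, at chr19:38930740-38930989 on the + strand, holds 2 matches, and Rrm2, at chr12:24708004-24708253 on the + strand, holds 1. The Dbf4 stretch, at chr5:8422717-8422966 on the − strand, and the Orc2 stretch, at chr1:58505110-58505359 on the − strand and 1 of several listed for that gene, hold 0.

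Over the whole 300 bases, 27 of the 42 replication promoters (64.3%) held the E2F core, against 13.6% of 18109 promoters of genes measured on the array and 9.57% of all 32851 promoters in the table. CCAAT, the letters of the CCAAT box, stood in 57.1% of the replication promoters and in 37.4% of those of measured genes. The GC box, GGGCGG, stood in 71.4% against 52.3%. The CHR element TTTGAA, known from genes of mitosis, stood in 16.7% against 13.4%. All motifs were read on both strands, can overlap each other, and are matches of letters rather than bound sites. The 23 measured genes with an E2F core had a median change from day 3 to the adult of -2.465 and the 12 with none a median of -1.682, with ranges from -5.69 to -0.24 and from -4.37 to -0.16 that lay largely over each other.

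Every measured replication gene was lower in the adult ventricles than at E9.5. The fall was called for 43 of 43 genes (limma, Benjamini-Hochberg adjusted p under 0.05), where 74.6% of all genes were called, 32.9% lower and 41.6% higher, and in all 43 the adult arrays lay below every E9.5 array, which held for 27.1% of all genes. The change ranged from -0.82 for Rfc1, the large subunit of the clamp loader, to -6.25 for Hells, with a median of -3.09 beside 0.13 over all genes. In bulk tissue, fewer cells of a dividing type and less RNA per cell cannot be told apart.

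**Figure D1:**
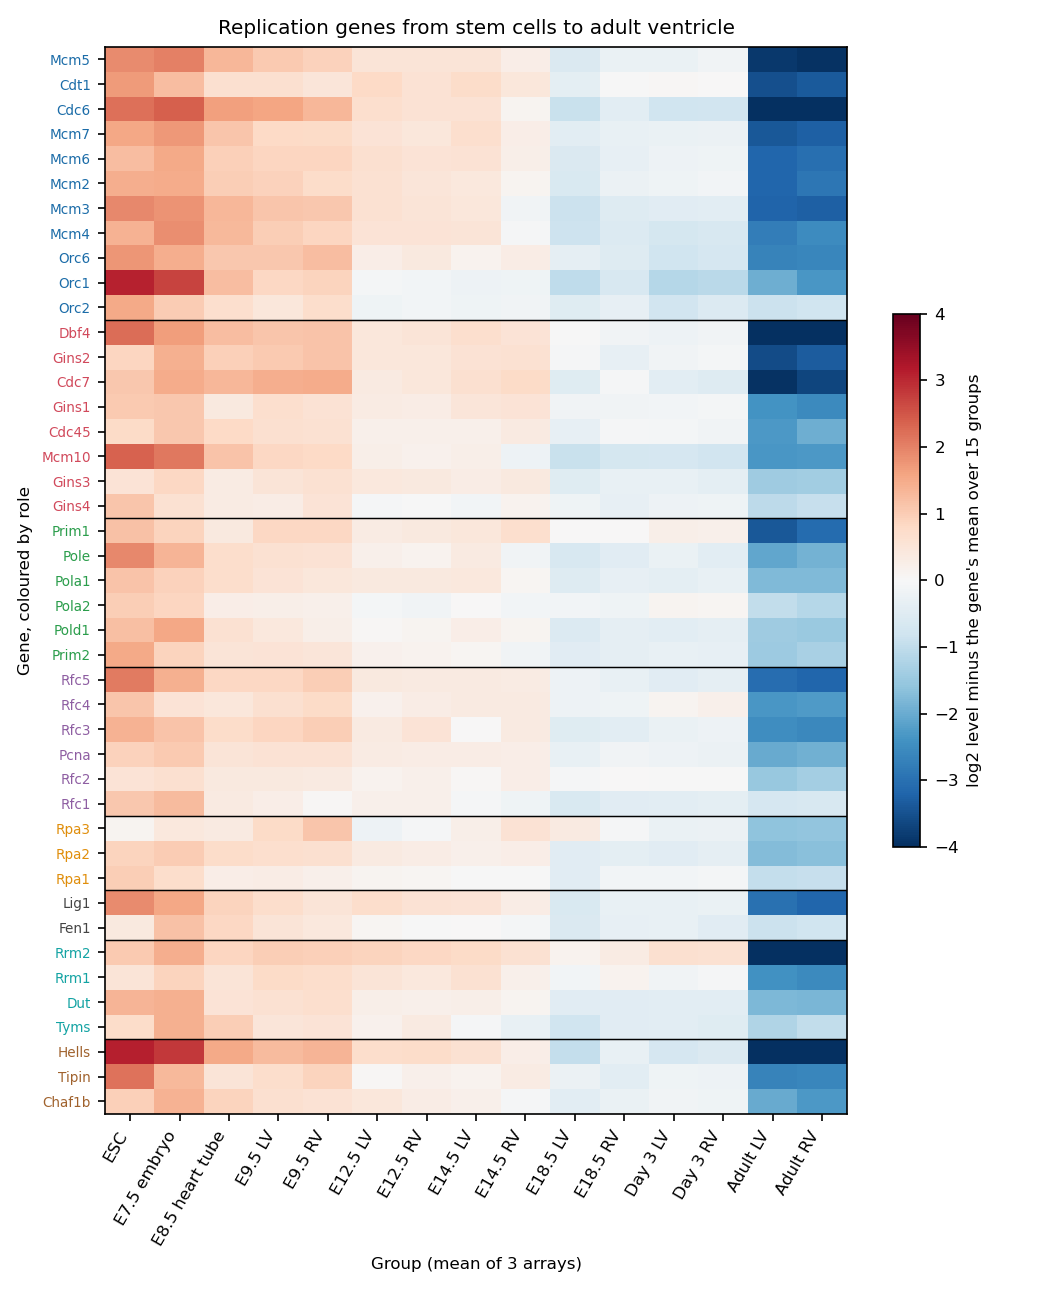
The log2 level of each of the 43 measured genes minus its own mean over the 15 groups, with genes in rows ordered by role and by their fall after day 3, and groups in columns from stem cells to adult ventricles (each cell is the mean of 3 arrays, the colour scale ends at 4 above and below). Either stem cells or E7.5 embryos are the highest group for all genes but Cdc7 and Rpa3, and the adult ventricles are lowest for all.

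The highest group was the E7.5 embryo for 21 genes, stem cells for 20, and the right ventricle at E9.5 for Cdc7 and Rpa3. The lowest group was an adult ventricle in all 43, the left in 31 and the right in 12. Averaged over the 43 genes, the 3 stem cell arrays stood at 10.61, 10.63 and 10.68, the heart tubes at 10.06, 10.12 and 10.03, and the adult left ventricles at 6.73, 6.86 and 6.82. As a description over the 15 group means, which share arrays and normalization, each gene correlated with the mean of the other genes with Pearson's r between 0.809 and 0.997 (median 0.979, Spearman's median 0.95). Without the 2 adult groups the lowest r was 0.44, for Rpa3, and the median 0.96. By Pearson's r the genes least like the rest over all groups were Rfc1 (0.81), Orc2 (0.82), Rpa3 (0.86) and Fen1 (0.86). Without the adult groups r was 0.953 in Rfc1, 0.954 in Orc2 and 0.907 in Fen1. Spearman's correlation over all groups was 0.964, 0.946 and 0.946 in these genes. By Spearman's the least alike were Rpa3 (0.646), Pola2 (0.818), Prim1 (0.871) and Cdc7 (0.882).

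Most called falls lay in 4 of the steps between stages. The steps span unequal times, and the first of these 4 is also a change of tissue. Changes were not scaled to time, so whether the decline was even per day was not tested. From E7.5 embryos to E8.5 heart tubes 39 of 43 genes fell and 0 rose (48.6% of all genes were called, 28.1% lower and 20.4% higher), with a median change of -0.51 beside -0.06 over all genes. From E9.5 to E12.5 33 fell and 0 rose (background 18% lower and 20.1% higher), with a median of -0.41. From E14.5 to E18.5 41 fell and 0 rose (background 18.7% lower), with a median of -0.64 beside -0.01 over all genes. From day 3 to the adult 41 fell and 0 rose (background 48.8%, with 26.4% lower), with a median of -2.01 beside 0.03. In these 4 steps 0 genes were higher even at an unadjusted p under 0.05 in limma. The arrays of the later stage lay wholly below those of the earlier one for 39, 26, 32 and 40 genes in the 4 steps, against 27.6%, 13.9%, 10.0% and 19.9% of all genes.

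The steps between these falls were mixed. From stem cells to E7.5 embryos 13 genes rose and 16 fell, with 24.3% of all genes called higher and 25.2% lower (49.4% in either direction). Without the arrays that stood apart, of which E7.5 replicate 2 is 1, this step had 12 genes higher and 9 lower. From E8.5 to E9.5 4 rose and 9 fell (background 12.8% and 14.1%). From E12.5 to E14.5 1 rose and 5 fell (7.18% and 6.09%), and from E18.5 to day 3 4 rose and 2 fell (9.94% and 10.3%, together 20.2%). The median changes of the 43 genes in these steps were 0.05, -0.09, -0.07 and 0.08.

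**Figure D2:**
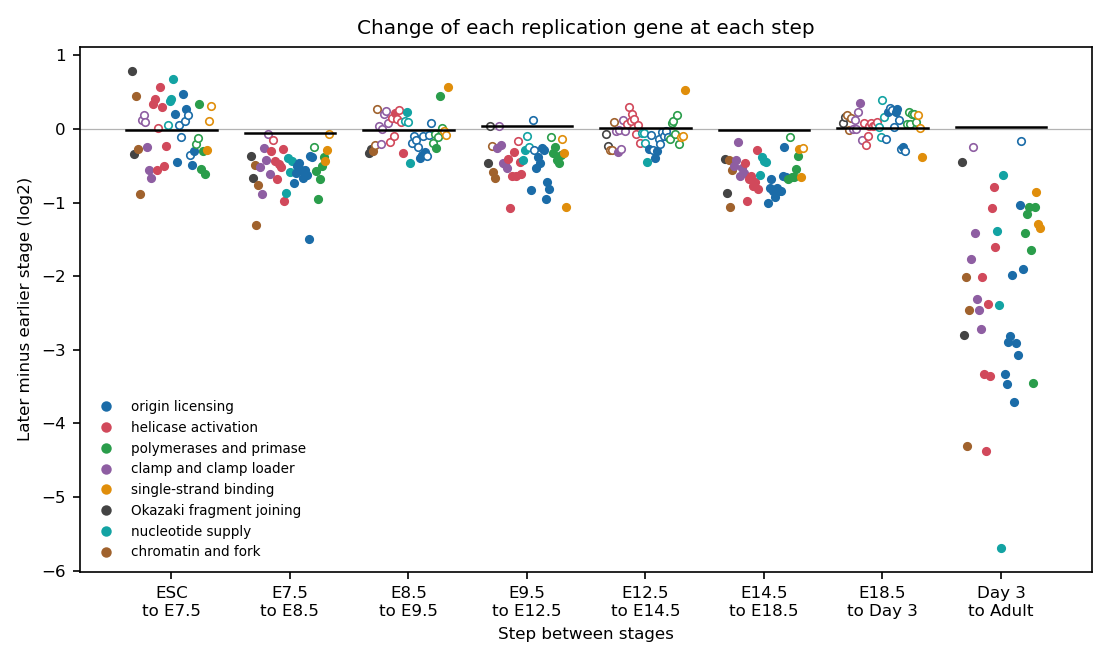
The change of each of the 43 genes at each of the 8 steps (later minus earlier stage, log2), coloured by role, with filled points for calls at an adjusted p under 0.05, open points for the rest and a black line at the median of all 18193 genes. Nearly all points lie below the line in the steps to E8.5, E12.5, E18.5 and the adult, where medians were -0.51, -0.41, -0.64 and -2.01, and on both sides of it in the others.

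Scaling moved some of these calls: with each array scaled to housekeeping genes the step from stem cells to E7.5 had 20 genes higher and 9 lower, and that from E9.5 to E12.5 1 higher and 22 lower. That scaling moved the median of all genes to 0.13 and 0.21 in these steps and to 0.22 and 0.51 in the comparisons of the adult with day 3 and with E9.5, where all called replication genes stayed lower (41 and 43). It also moved the split of all called genes, from 4414 higher and 4579 lower to 68.0% higher in the first step, from 3655 and 3281 to 78.8% higher in the step to E12.5, from 4066 and 4806 to 70.4% higher after day 3, and from 7574 and 5994 to 73.1% higher from E9.5 to the adult. From E8.5 to E9.5 the split went from 2337 higher and 2563 lower to 31.0% higher, and that of the replication genes from 4 higher and 9 lower to 2 and 14. Without the 8 arrays that stood apart, 35, 34, 38 and 42 genes were called lower in the 4 falling steps, and 7 instead of 13 genes were called from E8.5 to E9.5.

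The 11 origin licensing genes moved down together in the 4 falling steps. All 11 fell from E7.5 to E8.5, 9 from E9.5 to E12.5, 11 from E14.5 to E18.5 and 10 after day 3, with a median of -2.90 in the last step. Mcm5, a subunit of the helicase ring, fell most on the probe sets used. Its arrays read 12.43, 12.43 and 12.51 in stem cells and 11.47 to 11.65 with a median of 11.51 at E9.5. They read 10.23 to 10.55 with a median of 10.37 at day 3 and 6.13 to 7.01 with a median of 6.69 in the adult. The adult arrays lay far below all others, and the change of -3.71 ± 0.07 (SE, adjusted p = 5.4e-22) was a 13.1-fold one. Its stage means were 12.45 ± 0.05 in stem cells, 12.57 ± 0.15 at E7.5 and 11.90 ± 0.05 at E8.5. Mcm5 in the ventricles was 11.54 ± 0.05 at E9.5, 11.08 ± 0.07 at E12.5, 10.94 ± 0.05 at E14.5, 10.13 ± 0.02 at E18.5, 10.36 ± 0.07 at day 3 and 6.65 ± 0.07 in the adult. Mcm5 was among 3 licensing genes, with Cdt1 and Mcm6, that rose from E18.5 to day 3, by 0.23 ± 0.07, 0.23 ± 0.08 and 0.27 ± 0.08. In that order, these calls were lost in limma under 8, 11 and 5 alternatives (adjusted p up to 0.564, 0.926 and 0.423). Right ventricles alone lost each of them. Without the arrays that stood apart the calls of Mcm5 and Cdt1 were lost and that of Mcm6 was kept.

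The other helicase subunits followed. From day 3 to the adult the change was -3.07 ± 0.08 in Mcm7, -2.90 ± 0.08 in Mcm6, -2.90 ± 0.12 in Mcm2, -2.81 ± 0.09 in Mcm3 and -1.98 ± 0.09 in Mcm4. On the probe sets used, the changes of the subunits, which work as a single ring, thus ran from -3.71 in Mcm5 to -1.98 in Mcm4. A further probe set gave -3.73 ± 0.13 in Mcm6 and another -2.26 ± 0.15 in Mcm4, so the order within the ring rests on the probe set. Mcm4 had the largest change of the ring from E14.5 to E18.5, -0.93 ± 0.09.

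Of the loaders, Cdt1 stayed on a plateau through the embryonic heart while Cdc6 fell from E9.5 to E12.5, E14.5 and E18.5 in turn. Cdt1 was 11.40 ± 0.04 at E8.5, 11.31 ± 0.12 at E9.5, 11.44 ± 0.09 at E12.5 and 11.35 ± 0.09 at E14.5, then changed by -0.80 ± 0.08 to E18.5 and by -3.46 ± 0.08 after day 3. Cdc6 went from 9.10 ± 0.12 at E9.5 to 8.27 ± 0.09 at E12.5, 7.998 ± 0.17 at E14.5, 6.99 ± 0.04 at E18.5 and 6.86 ± 0.03 at day 3. Its adult level of 3.53 ± 0.11 lay in the lowest 25% of all values on the arrays, where RMA compresses differences, after a change of -3.33 ± 0.08.

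The origin recognition genes behaved unlike each other. Orc1, the subunit whose amount varies with the cell cycle, fell most on the way into the heart tube: 9.43, 9.70 and 9.74 in stem cells, 9.10, 9.30 and 9.39 at E7.5 and 7.54, 7.86 and 7.91 at E8.5, a change of -1.49 ± 0.15 that was the largest of all 43 genes in that step on the probe sets used. It went on to 7.41 ± 0.09 at E9.5, 6.45 ± 0.13 at E12.5, 6.35 ± 0.02 at E14.5, 5.70 ± 0.11 at E18.5, 5.44 ± 0.08 at day 3 and 4.41 ± 0.49 in the adult, so that 34.3% of its fall from E9.5 came after day 3. Orc2 fell before birth more than after it: 9.93 ± 0.07 in stem cells, 9.45 ± 0.14 at E7.5 and 9.08 ± 0.10 at E8.5. Orc2 in the ventricles was 8.998 ± 0.15 at E9.5, 8.28 ± 0.06 at E12.5, 8.26 ± 0.05 at E14.5, 8.02 ± 0.08 at E18.5, 7.77 ± 0.10 at day 3 and 7.60 ± 0.08 in the adult. Its day 3 arrays ran from 7.53 to 7.88 and its adult arrays from 7.37 to 7.83, an overlap, and the difference of -0.16 ± 0.08 was not called (adjusted p = 0.115). The other 2 probe sets of Orc2, both dimmer, were called lower in this step, with changes of -0.49 ± 0.09 and -0.69 ± 0.08. Orc6 fell by 1.91 ± 0.12 in the same step.

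All 8 helicase activation genes fell after day 3, with a median change of -2.20. Dbf4, the activator of the Cdc7 kinase, fell most. Its arrays read 11.44, 11.45 and 11.48 in stem cells, 8.96 to 9.20 with a median of 9.05 at day 3 and 4.402 to 4.89 with a median of 4.70 in the adult, and its stage means were 11.46 ± 0.02 in stem cells, 10.89 ± 0.09 at E7.5 and 10.45 ± 0.05 at E8.5. Dbf4 in the ventricles was 10.37 ± 0.01 at E9.5, 9.73 ± 0.01 at E12.5, 9.84 ± 0.03 at E14.5, 9.16 ± 0.03 at E18.5, 9.06 ± 0.11 at day 3 and 4.69 ± 0.06 in the adult. The spread within each stage was small beside the change of -4.37 ± 0.06 (adjusted p = 6.39e-24, 20.7-fold). Cdc7 itself was not highest at the start: it was 9.05 ± 0.11 in stem cells, 9.46 ± 0.08 at E7.5, 9.30 ± 0.09 at E8.5 and 9.45 ± 0.03 at E9.5, and changed by -1.07 ± 0.12 to E12.5, the largest fall of that step. Its change was -0.97 ± 0.12 to E18.5 and -3.33 ± 0.12 after day 3.

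The 4 GINS genes, whose products form a single complex, fell to different degrees. From day 3 to the adult the change was -3.35 ± 0.11 in Gins2, -2.38 ± 0.08 in Gins1, -1.07 ± 0.11 in Gins3 and -0.79 ± 0.10 in Gins4. Gins4 had the smallest fall of the role, with stage means of 10.54 ± 0.07 in stem cells, 9.86 ± 0.25 at E9.5, 9.47 ± 0.11 at E14.5, 9.25 ± 0.09 at day 3 and 8.46 ± 0.19 in the adult. Its day 3 arrays, 9.15 to 9.35, still lay above all adult arrays, 8.24 to 8.68. Gins1 rose by 0.22 ± 0.08 from E8.5 to E9.5, against the direction of most called genes, with arrays of 9.66, 9.76 and 9.85 in the heart tube and of 9.89 to 10.12 with a median of 9.97 in the ventricles. This call was lost under 13 alternatives, among them left or right ventricles alone, housekeeping scaling, leaving out any E9.5 replicate number and leaving out the arrays that stood apart (adjusted p up to 0.197). Cdc45, the partner of the GINS complex, fell by 2.01 ± 0.07 after day 3. Mcm10, which helps to activate the helicase, fell by 1.60 ± 0.07 in that step and had already changed by -0.97 ± 0.07 from E7.5 to E8.5.

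The 6 polymerase and primase genes all fell after day 3, with a median change of -1.29, and Prim1 stood apart from the rest. Prim1, the catalytic subunit of primase, had stage means of 10.97 ± 0.08 in stem cells, 10.68 ± 0.11 at E7.5 and 10.18 ± 0.15 at E8.5. Prim1 in the ventricles was 10.62 ± 0.13 at E9.5, 10.16 ± 0.10 at E12.5, 10.36 ± 0.14 at E14.5, 9.81 ± 0.05 at E18.5, 10.01 ± 0.07 at day 3 and 6.56 ± 0.23 in the adult. Its change of -3.45 ± 0.10 (adjusted p = 2.43e-18) separated arrays of 9.89 to 10.08 with a median of 10.02 at day 3 from arrays of 6.03 to 7.06 with a median of 6.59 in the adult. Its partner Prim2, the large primase subunit, had the smallest change of the role on the probe sets used at -1.06 ± 0.12, with means of 9.57 ± 0.04 in stem cells, 8.58 ± 0.18 at E9.5, 8.03 ± 0.20 at E14.5, 7.75 ± 0.03 at day 3 and 6.69 ± 0.15 in the adult. A further probe set of Prim2, nearly as bright, gave -1.74 ± 0.08, so the place of Prim2 in the role rests on the probe set. Prim1 also rose from E8.5 to E9.5, by 0.45 ± 0.10, where Prim2 had a difference of 0.01 that was not called.

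Of the polymerase subunits, Pole, the catalytic subunit of the leading-strand enzyme, changed by -1.64 ± 0.11 after day 3. The change was -1.41 ± 0.11 in Pola1 of polymerase alpha, -1.16 ± 0.09 in its partner Pola2 and -1.07 ± 0.09 in Pold1 of polymerase delta. Pold1 lost almost as much on the way into the heart tube, from 9.96, 10.37 and 10.41 at E7.5 to 9.24, 9.29 and 9.37 at E8.5, a change of -0.95 ± 0.09. Pola2 was the only gene of the role not called from E14.5 to E18.5 (-0.11, adjusted p = 0.414), and 91.4% of its fall from E9.5 came after day 3.

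In the clamp and clamp loader group the large and small subunits of the loader parted. Rfc5, a small subunit, fell most, by 2.72 ± 0.08 (adjusted p = 4e-18), with stage means of 11.19 ± 0.10 in stem cells, 10.53 ± 0.08 at E7.5 and 9.93 ± 0.07 at E8.5. Rfc5 in the ventricles was 10.01 ± 0.10 at E9.5, 9.48 ± 0.05 at E12.5, 9.46 ± 0.05 at E14.5, 8.86 ± 0.04 at E18.5, 8.71 ± 0.01 at day 3 and 5.99 ± 0.22 in the adult. The change was -2.46 ± 0.10 in Rfc4, -2.31 ± 0.10 in Rfc3, -1.42 ± 0.06 in Rfc2 and -1.77 ± 0.07 in Pcna, the sliding clamp. Rfc1 had stage means of 9.96 ± 0.12 in stem cells, 9.05 ± 0.13 at E9.5, 8.79 ± 0.16 at E14.5, 8.48 ± 0.03 at day 3 and 8.24 ± 0.07 in the adult. Its day 3 arrays, 8.40 to 8.58, overlapped by little with its adult arrays, 8.04 to 8.41, and the difference of -0.24 ± 0.10 missed the threshold (adjusted p = 0.0538). More of its fall from E9.5 came from E14.5 to E18.5 (52.2%) than after day 3 (29.6%).

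Pcna moved little between the falling steps. Its arrays read 13.61, 13.71 and 13.72 in stem cells and 13.75, 13.79 and 13.86 at E7.5, and its means were 13.28 ± 0.07 at E8.5, 13.32 ± 0.02 at E9.5, 13.06 ± 0.05 at E12.5, 13.04 ± 0.06 at E14.5, 12.54 ± 0.03 at E18.5, 12.54 ± 0.07 at day 3 and 10.77 ± 0.14 in the adult. Rfc4 was the single clamp loader gene that rose from E18.5 to day 3, by 0.35 ± 0.10, and the single one not called from E7.5 to E8.5 (-0.07, adjusted p = 0.592). The call of its rise was lost in limma under 6 alternatives, among them left ventricles alone (adjusted p up to 0.0759).

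The 3 subunits of replication protein A, which coats single-stranded DNA, all fell after day 3, but Rpa3 had a course of its own. Its arrays read 10.79, 10.94 and 11.04 in the heart tube, 11.01 to 11.89 with a median of 11.51 at E9.5, 10.15 to 10.71 with a median of 10.46 at E12.5 and 10.50 to 11.33 with a median of 10.96 at E14.5. It thus rose by 0.57 ± 0.13, fell by 1.06 ± 0.13 and rose again by 0.53 ± 0.13. Rpa3 was the single gene called higher from E12.5 to E14.5. Its stage means were 10.68 ± 0.04 in stem cells, 10.99 ± 0.09 at E7.5 and 10.92 ± 0.12 at E8.5. Rpa3 in the ventricles was 11.50 ± 0.35 at E9.5, 10.44 ± 0.18 at E12.5, 10.96 ± 0.17 at E14.5, 10.71 ± 0.13 at E18.5, 10.32 ± 0.09 at day 3 and 8.97 ± 0.17 in the adult. The 3 values at E9.5 had an SD of 0.35, wider than for any other gene at that stage, and 2 of the 3 left ventricles (11.77, 11.01 and 11.16) lay close to the heart tube. Its change was -0.38 ± 0.13 to day 3 and -1.35 ± 0.13 after it. The call to day 3 was lost in limma under 10 alternatives, among them leaving out the arrays that stood apart (adjusted p up to 0.579).

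Rpa1, the large subunit, fell least, by 0.85 ± 0.08, and its stage means were 12.64 ± 0.05 in stem cells, 11.90 ± 0.05 at E9.5, 11.65 ± 0.06 at E14.5, 11.57 ± 0.05 at day 3 and 10.72 ± 0.02 in the adult. Rpa2 changed by -1.30 ± 0.07, and by -0.65 ± 0.07 from E14.5 to E18.5, where its arrays ran from 9.93 to 10.12 at the earlier and from 9.22 to 9.43 at the later stage, without overlap.

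Lig1, the ligase that seals Okazaki fragments, and Fen1, the nuclease that trims their flaps, both fell after day 3. Lig1 fell by 2.79 ± 0.10 (adjusted p = 3.08e-17), with stage means of 11.80 ± 0.10 in stem cells, 11.46 ± 0.26 at E7.5 and 10.80 ± 0.08 at E8.5. Lig1 in the ventricles was 10.53 ± 0.16 at E9.5, 10.57 ± 0.07 at E12.5, 10.34 ± 0.03 at E14.5, 9.47 ± 0.06 at E18.5, 9.63 ± 0.05 at day 3 and 6.84 ± 0.07 in the adult. Fen1 fell by 0.45 ± 0.07 in that step on the probe set used and changed by -2.43 ± 0.08 (adjusted p = 5.4e-18) on its other, dimmer one, so the size of its fall rests on the probe set. The one used had stage means of 11.17 ± 0.08 in stem cells, 11.27 ± 0.09 at E9.5, 10.74 ± 0.03 at E14.5, 10.41 ± 0.01 at day 3 and 9.96 ± 0.17 in the adult. Its adult arrays, 9.62 to 10.16, lay just below its day 3 arrays, 10.27 to 10.53, and 34.6% of its fall from E9.5 came in that step. Fen1 had the largest rise of all 43 genes from stem cells to E7.5, 0.79 ± 0.07, with arrays of 11.08, 11.19 and 11.23 against 11.91, 11.92 and 12.04. Lig1 fell by 0.34 ± 0.10 in that step. This call of Lig1 was lost under 5 alternatives in limma (adjusted p up to 0.16). Among them were housekeeping scaling, leaving out E7.5 replicate 2 and leaving out the arrays that stood apart.

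Of the nucleotide supply genes, Rrm2 fell more than any other replication gene after day 3. It encodes the small subunit of ribonucleotide reductase, which makes deoxynucleotides and is made in S phase. Its arrays read 12.36 to 12.70 with a median of 12.53 at E9.5, 12.01 to 12.37 with a median of 12.23 at E14.5, 12.08 to 12.25 with a median of 12.17 at day 3 and 5.59 to 7.86 with a median of 6.36 in the adult. The change of -5.69 ± 0.16 (adjusted p = 4.65e-19, 51.7-fold) was 94.4% of its whole fall from E9.5, and its stage means were 12.59 ± 0.10 in stem cells, 12.998 ± 0.15 at E7.5 and 12.41 ± 0.10 at E8.5. Rrm2 in the ventricles was 12.51 ± 0.05 at E9.5, 12.41 ± 0.12 at E12.5, 12.22 ± 0.09 at E14.5, 11.78 ± 0.10 at E18.5, 12.17 ± 0.07 at day 3 and 6.48 ± 0.54 in the adult. The adult arrays disagreed more than at any other stage: the right ventricle read 6.47, 7.86 and 6.41, and the replicate at 7.86 was the array that stood apart on fibroblast genes (12.85, against 11.08 to 11.58 in the other 5 adult arrays), whose part in the value was not tested.

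Rrm1, the large subunit of the same enzyme, fell by 2.39 ± 0.08 after day 3 and rose by 0.23 ± 0.08 from E8.5 to E9.5, with arrays of 10.95, 11.14 and 11.22 at E8.5 and of 11.11 to 11.46 with a median of 11.38 at E9.5, which overlap. That rise was lost under 12 alternatives, among them left or right ventricles alone and housekeeping scaling (adjusted p up to 0.243). Rrm2b, an alternative small subunit known for supplying deoxynucleotides outside S phase and no member of the list, was higher in the adult than in stem cells. Its level was 6.69 ± 0.05 in stem cells, 6.25 ± 0.24 at E7.5, 7.59 ± 0.09 at E8.5, 8.41 ± 0.09 in the left ventricle at E9.5, 8.79 ± 0.08 there at day 3 and 9.52 ± 0.11 there in the adult. It fell by 0.44 ± 0.09 from stem cells to E7.5, then rose by 1.34 ± 0.09 into the heart tube, by 0.80 ± 0.09 to E9.5, by 0.28 ± 0.09 to E12.5 and by 0.65 ± 0.09 after day 3 (adjusted p = 1.6e-06).

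**Figure D3:**
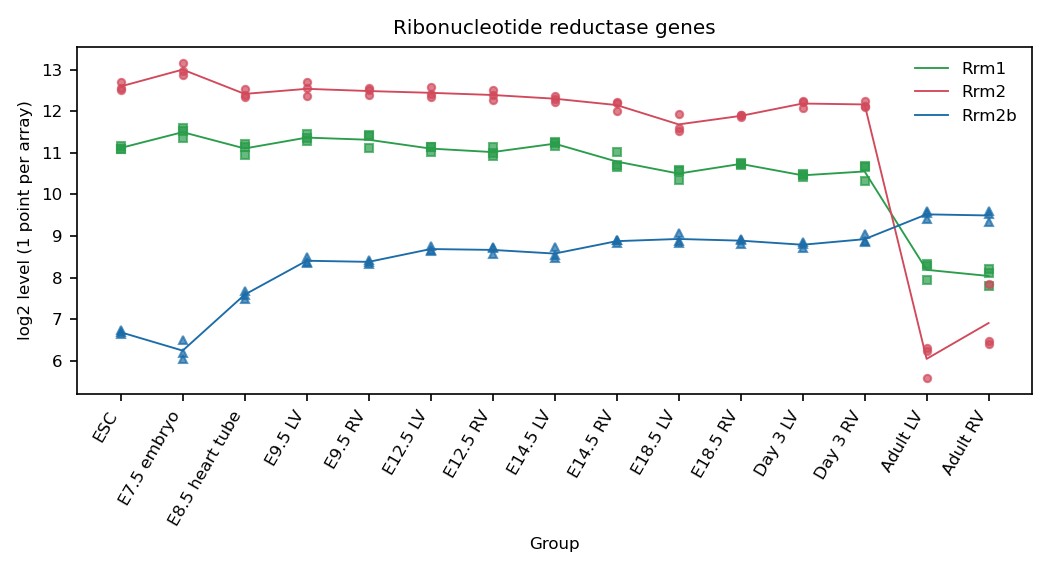
Log2 levels of the ribonucleotide reductase genes Rrm1, Rrm2 and Rrm2b on each array of the 15 groups, with lines through the group means (3 arrays each). Rrm2 stays between 11.52 and 13.16 up to day 3 and drops to between 5.59 and 7.86 in the adult, Rrm1 falls less, and Rrm2b is lowest in E7.5 embryos and highest in the adult. Heights of different genes are not comparable.

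Dut, which removes dUTP, changed by -1.38 ± 0.09 after day 3 and by -0.87 ± 0.09 from E7.5 to E8.5. Tyms, the thymidylate synthase gene, was dim on the probe set named for it, with a mean of 4.28 over all arrays, so its differences are compressed. Its stage means were 5.01 ± 0.14 in stem cells, 4.79 ± 0.13 at E9.5, 4.10 ± 0.09 at E14.5, 3.82 ± 0.02 at day 3 and 3.20 ± 0.14 in the adult, and it fell by 0.62 ± 0.12 after day 3. A brighter probe set that the annotation gives to both Tyms and a pseudogene was not used.

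Hells, a chromatin remodeller of replicating cells, and Chaf1b, a subunit of the histone chaperone that works behind the fork, bounded the chromatin genes. Hells fell in each of the 4 falling steps: its arrays read 11.32, 11.60 and 11.79 at E7.5 and 10.18, 10.24 and 10.37 at E8.5, then 9.93 to 10.17 with a median of 10.04 at E9.5, 8.88 to 9.45 with a median of 9.21 at E14.5, 7.76 to 8.46 with a median of 8.15 at E18.5 and 3.40 to 4.57 with a median of 3.70 in the adult. None of these stages overlapped the next one named. Its stage means were 11.85 ± 0.05 in stem cells, 11.57 ± 0.23 at E7.5 and 10.26 ± 0.10 at E8.5. Hells in the ventricles was 10.04 ± 0.004 at E9.5, 9.46 ± 0.07 at E12.5, 9.18 ± 0.08 at E14.5, 8.12 ± 0.02 at E18.5, 8.11 ± 0.13 at day 3 and 3.79 ± 0.17 in the adult, and the change after day 3 was -4.31 ± 0.10 (adjusted p = 1.09e-20). The adult mean lay in the lowest 25% of all values. Chaf1b fell by 2.01 ± 0.11, with stage means of 8.62 ± 0.08 in stem cells, 8.29 ± 0.06 at E9.5, 7.76 ± 0.04 at E14.5, 7.53 ± 0.08 at day 3 and 5.52 ± 0.33 in the adult. Tipin, a fork protection factor, fell by 2.46 ± 0.10 after day 3 and had the largest fall of the 43 genes from stem cells to E7.5, -0.89 ± 0.10, with arrays of 12.25, 12.27 and 12.34 against 11.21, 11.42 and 11.57.

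**Figure D4:**
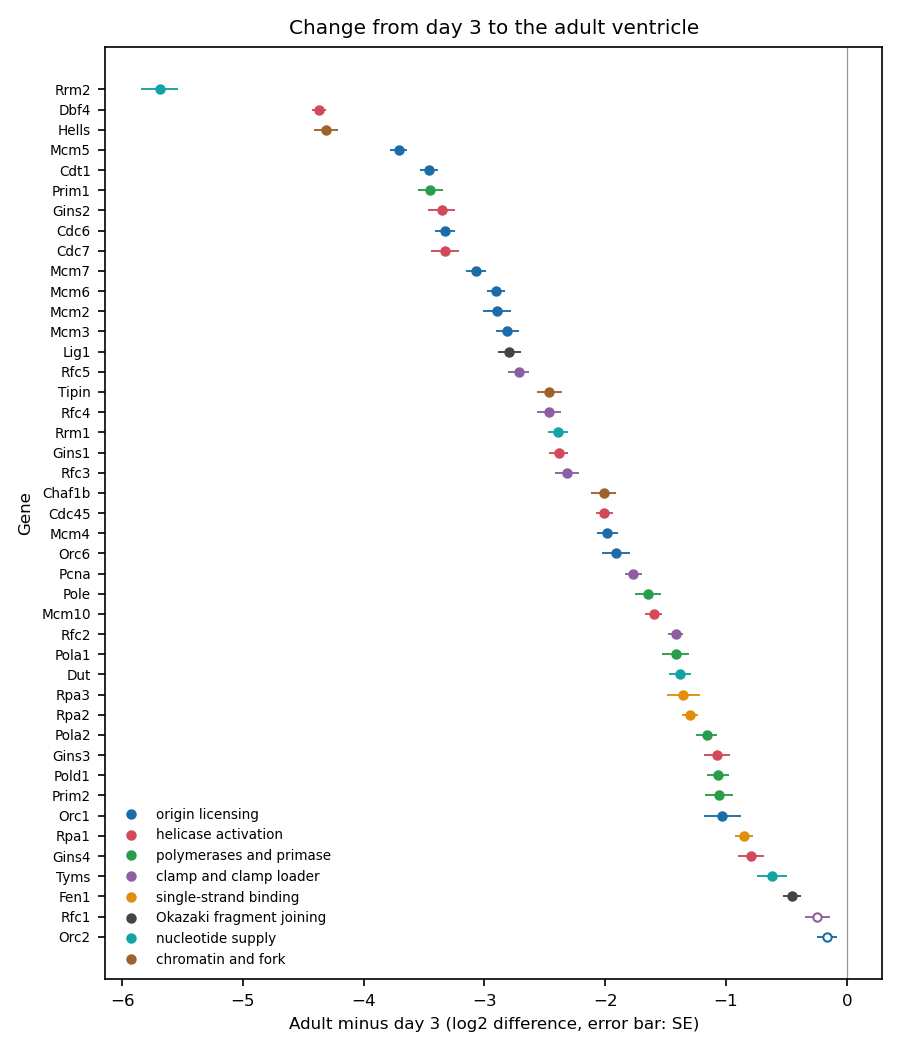
The difference of the adult from the day 3 ventricle for each of the 43 genes (log2, with its standard error from limma as a bar), ordered by size and coloured by role, with open points for the genes not called. It runs from -5.69 for Rrm2 to -0.16 for Orc2, and neighbours in the order mostly lie within each other's standard errors.

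The fall after day 3 exceeded 2 log2 units in 22 genes and 3 units in 10 (Rrm2, Dbf4, Hells, Mcm5, Cdt1, Prim1, Gins2, Cdc6, Cdc7 and Mcm7), and was under 1 unit in 6 (Rpa1, Gins4, Tyms, Fen1, Rfc1 and Orc2), of which Fen1 exceeded 2 units on its other probe set. It made up a median of 67.6% of the fall from E9.5, from 11.7% in Orc2 to 94.4% in Rrm2, and more than 50% in 38 genes. Standard errors ran from 0.06 to 0.16, with a median of 0.09, so on the probe sets used the genes at the ends of the order differed by many standard errors and most neighbours by less than 1. These standard errors do not cover the choice of probe set. A further probe set gave a smaller fall in Hells (-0.45) and a larger one in Prim2 (-1.74). Over the same step leukocyte markers rose from between 7.50 and 7.79 to between 8.81 and 9.64 (6 of 6 genes measured), fibroblast and matrix markers went from between 12.66 and 12.83 to between 11.08 and 12.85, and their part in the fall was not tested.

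The smaller mid-course calls rested on few arrays. From E12.5 to E14.5 the change was -0.40 ± 0.09 in Mcm3, -0.30 ± 0.09 in Mcm4, -0.28 ± 0.08 in Cdc6, -0.45 ± 0.12 in Tyms and -0.31 ± 0.10 in Rfc1. In that step 0 of the 43 genes had arrays that did not overlap. Left ventricles alone gave 0 calls there, and so did the fit without E14.5 replicate 1, while leaving out E12.5 replicate 1 or 2 left 3 or 2 calls. From E18.5 to day 3, where Orc2 fell by 0.25 ± 0.08, the 6 calls became 1 to 3 without E18.5 replicate 1 or 2 (2 each) or day 3 replicate 1, 2 or 3 (3, 3 and 1). Without the 8 arrays that stood apart, 3 genes were higher and 4 lower in the step to E14.5. The step to day 3 then had 7 higher and 1 lower.

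The other genes of the pathway fell with the members, most of all those of mitosis. In 5 further lists, 101 of 104 genes were measured. After day 3 all 19 mitosis genes fell, with a median of -4.20, as did 32 of 36 other replication factors (median -0.81), 13 of 17 S phase kinases and licensing controls (-1.002), 11 of 18 E2F and pocket protein genes (-0.61) and 6 of 11 other nucleotide enzymes (-0.21), while 6 E2F and pocket protein genes and 2 nucleotide enzymes rose. Over all genes 26.4% were called lower and 22.3% higher in this step, so these rises lie near the background. The largest falls were those of Birc5, a subunit of the chromosomal passenger complex (-5.56 ± 0.13), Bub1, a spindle checkpoint kinase (-5.43 ± 0.10), and Ccnb2, a mitotic cyclin (-4.89 ± 0.10). The median fall of the mitosis list was thus larger than that of the 43 replication genes, although the change of Rrm2, -5.69, was the largest value of both lists.

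The largest rises were those of Tfdp2, a dimer partner of E2F factors (1.07 ± 0.11, from 8.58 ± 0.11 to 9.52 ± 0.18 in the left ventricle), E2f6, a repressor of the E2F family (0.69 ± 0.07), and Rrm2b. Rb1, the pocket protein that restrains E2F, rose by 0.99 ± 0.11 from E9.5 to E12.5, from 7.08 ± 0.24 to 8.06 ± 0.10 in the left ventricle, and by 0.35 ± 0.11 after day 3. E2f1, an activator, had no called step up to day 3 and fell by 0.96 ± 0.13 after day 3. Gmnn, the inhibitor of Cdt1, fell by 0.50 ± 0.09, much less than Cdt1, and stood at 11.51 ± 0.06 at day 3 and 11.07 ± 0.22 in the adult left ventricle. Top2a, which untangles replicated DNA, changed by -4.49 ± 0.13 and Mki67, a marker of cycling cells, by -4.20 ± 0.14. Mki67 was not called in any step from stem cells to E14.5, though its changes to E8.5 and to E12.5 were negative (-0.235 and -0.306). In these steps 39 and 33 of the 43 replication genes fell. The mean of the mitosis list fell too, from 10.63 at E7.5 to 10.30 at E8.5. From E9.5 to E12.5 that mean went from 10.38 to 9.86 in the left ventricle and from 10.32 to 9.87 in the right.

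Left and right ventricles differed in replication genes at E14.5 and E18.5, in opposite directions, and at neither stage was a gene called without the arrays that stood apart. At E14.5 7 of 43 genes were higher in the left ventricle and 0 lower (8.51% of all genes were called, 4.24% higher and 4.27% lower), namely Mcm3, Mcm4, Cdc6, Pole, Mcm10, Rrm1 and Mcm7. At E18.5 4 were lower in the left and 0 higher (2.11% and 2.84%, together 4.95%), namely Hells, Cdc6, Cdt1 and Rpa1. From E14.5 to E18.5 the left ventricle fell more than the right in 13 genes and less in 0 (3.49% and 3.89% of all genes), and 8 of these 13 belonged to origin licensing.

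Mcm3, a subunit of the helicase ring, had the smallest adjusted p of the change. At E14.5 its left arrays read 10.08, 10.30 and 10.26 and its right arrays 9.34, 9.63 and 9.87, with no overlap. At E18.5 the left read 8.87, 8.81 and 9.0 and the right 9.23, 9.31 and 9.21, again apart and the other way round. The difference between the ventricles was 0.60 ± 0.12 (SE, adjusted p = 0.00143) at E14.5 and -0.36 ± 0.12 (adjusted p = 0.0662) at E18.5, and the change between them was -0.96 ± 0.16 (adjusted p = 0.00117).

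Hells gave the largest change, -1.02 ± 0.20 (adjusted p = 0.00408). Its left arrays went from 9.28, 9.45 and 9.35 to 7.77, 7.76 and 7.85 and its right arrays from 8.88, 8.97 and 9.13 to 8.46, 8.45 and 8.45. The ventricles did not overlap at either stage. Cdc6 was the single gene called at both stages, with left arrays of 8.14, 8.35 and 8.22 against right arrays of 7.48, 7.74 and 8.06 at E14.5 and 6.75, 6.62 and 6.94 against 7.28, 7.29 and 7.07 at E18.5, a change of -0.92 ± 0.17. Mcm4 changed by -0.83 ± 0.16, from left arrays of 10.80, 10.99 and 10.88 and right arrays of 10.17, 10.31 and 10.53 to 9.47, 9.43 and 9.74 and 9.84, 9.88 and 9.76, where the lowest right array exceeded the highest left one by little.

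The other genes called between ventricles had smaller differences. Cdt1 had means of 11.48 ± 0.10 left and 11.21 ± 0.13 right at E14.5 and 10.36 ± 0.20 and 10.74 ± 0.06 at E18.5 (SD, n = 3 arrays). Mcm10 had 8.21 ± 0.11 and 7.78 ± 0.16, then 7.09 ± 0.10 and 7.27 ± 0.10, Mcm7 12.31 ± 0.03 and 11.91 ± 0.11, then 11.21 ± 0.20 and 11.33 ± 0.05. Pole had 7.66 ± 0.13 and 7.19 ± 0.07, then 6.68 ± 0.22 and 6.87 ± 0.08, and Rrm1 11.22 ± 0.04 and 10.79 ± 0.20, then 10.50 ± 0.12 and 10.73 ± 0.02. In each of these genes the left mean was above the right at E14.5 and below it at E18.5. Rpa1 had nearly equal means at E14.5 (11.65 ± 0.10 and 11.66 ± 0.11) and differed by -0.33 at E18.5.

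**Figure D5:**
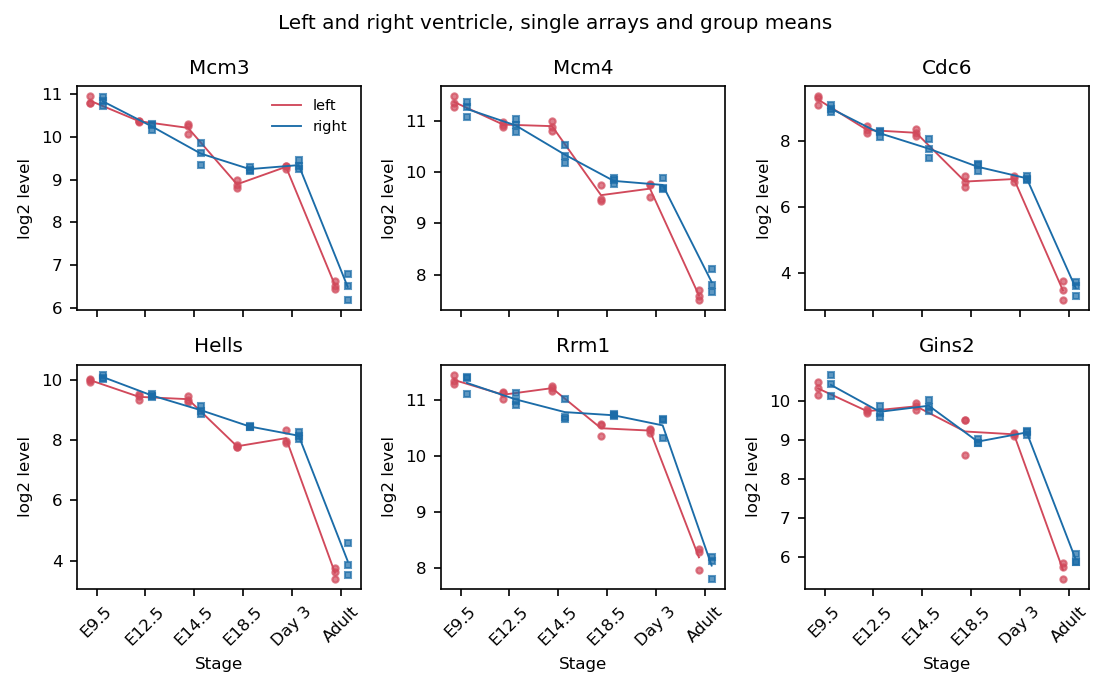
Log2 levels of Mcm3, Mcm4, Cdc6, Hells, Rrm1 and Gins2 in left (circles) and right (squares) ventricles at the 6 ventricle stages, 1 point per array, with lines through the group means of 3. In all but Gins2, which was not called, the left ventricle is above the right at E14.5 and below it at E18.5, and at day 3 no difference was called.

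Markers of other tissues also differed between the ventricles at these stages. The liver list (4 of 4 genes measured) read 5.28 to 8.98 in left and 5.05 to 7.096 in right ventricles at E14.5, and 7.26 to 10.91 in left and 4.71 to 6.49 in right ones at E18.5. The fibroblast list read 12.32 to 12.43 in left and 11.68 to 11.72 in right ventricles at E14.5, and the leukocyte list 7.55 to 8.25 and 7.11 to 7.22 at E18.5, and their part in the difference was not tested. Without the 8 arrays, which left 2 arrays in each of these 4 groups, 0 genes were called at E14.5, 0 at E18.5 and 1, Mcm3 (-0.74, adjusted p = 0.0419), in the change between them. The 13 differences then ran from -0.90 to -0.32. Their sign is no separate check, because the genes were chosen by it on largely the same arrays. With stage and replicate number as a block 9 of the 13 were called, without Lig1, Mcm5, Mcm6 and Mcm7.

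Single arrays also decided these counts. The 13 became 8 without E14.5 LV replicate 2, 5 without E14.5 RV replicate 1, 7 without E18.5 LV replicate 1, 6 without E18.5 LV replicate 2 and 7 without E18.5 RV replicate 1 or 2. The 7 at E14.5 became 4 without LV replicate 2, 2 without RV replicate 1 and 3 without RV replicate 2, and the 4 at E18.5 became 1 without LV replicate 1 or 2 or RV replicate 1 or 2 and 10 without LV replicate 3. An F-test of whether the difference depends on stage called 5 genes (Cdc6, Cdt1, Hells, Mcm3 and Mcm4, against 5.85% of all genes), 0 without the 8 arrays, 3 with the block, 14 without E18.5 LV replicate 3 and 10 without adult RV replicate 1.

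At the other stages the ventricles were not told apart. In limma 0 of 43 genes were called at E9.5 (3.5% of all genes), E12.5 (1.26%, with 0.918% lower in the left), day 3 (0.0055%) and in the adult (0.0165%), or in the mean of the 6 stages (2.97%, 1.25% higher and 1.72% lower), and 2, 1, 0, 6 and 6 genes had an unadjusted p under 0.05. The change in the difference was called for 0 genes from E9.5 to E12.5 (0.704%), E12.5 to E14.5 (1.43%), E18.5 to day 3 (0.308%) and day 3 to the adult (0.011%), with 0, 6, 6 and 2 at an unadjusted p under 0.05. Leaving out 1 array gave 1 call at E9.5 (without RV replicate 2), 3 or 1 in the adult (without RV replicate 1 or 3), 1 in the mean (without E9.5 RV replicate 2, adult LV replicate 3 or adult RV replicate 1), 1 or 2 in the change to E14.5 (without E14.5 LV replicate 1 or RV replicate 3) and 3 in the change to day 3 (without E18.5 LV replicate 3).

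Of the 43 genes 34 had further probe sets, 53 in all, each with a lower mean than the one used. From day 3 to the adult 33 of the 53 were called lower, 19 were not called, and 1, a dim probe set of Cdc45, was called higher by 0.30. Further probe sets close in brightness also gave other sizes: 0.24 (not called) in Orc1, -1.74 in Prim2 and -0.43 in Rfc1, and a dimmer one of Hells gave -0.45. Opposite calls of a further probe set also occurred for Dbf4 and Mcm10 from stem cells to E7.5, for Orc2 and Tyms from E14.5 to E18.5, and for Tyms and Cdc45 from E9.5 to the adult. In these genes and steps, and in Cdc45 after day 3, the direction rests on the probe set chosen.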

How the data were processed

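RNA of 45 samples was hybridised as biotin-labelled cRNA to Affymetrix mouse arrays, 1 array per sample. The authors deposited log2 values of 45101 probe sets made with RMA, per the submitters' processing notes. RMA corrects background, gives all arrays the same distribution of values and combines the probes of a set, and the version is not given in the sources used here.

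Probe sets with 1 gene symbol in the platform annotation (34945) were updated through RefSeq, and the brightest set by its mean on the 45 arrays stood for each of 18193 genes. The replication genes, their roles and the further gene lists were chosen with earlier results of these data known. Steps between stages were fitted with limma 3.58.1 (R 4.3.3) on 27 values over 9 stages, each the mean of the same-numbered left and right ventricle, with 18 residual degrees of freedom. Left and right were compared on 45 arrays as 15 groups with 30 residual degrees of freedom. Tests are two-sided, with Benjamini-Hochberg adjustment over all 18193 genes and a threshold of 0.05. Genes named with values were the largest and smallest falls of each role after day 3, genes called against the direction of most, and genes called between ventricles. Of the further lists these were the 3 largest called falls and rises after day 3 and Rrm2b, Top2a, Mki67, E2f1, Rb1 and Gmnn, and other names, the closing section included, were chosen after their values were seen. The labels call the samples biological triplicates, and nothing says that numbers pair stages. No 2 arrays held identical values.

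The procedure was tested on simulated data with 200 of 18193 genes changed: for the step from E14.5 to E18.5 it recovered 71.6%, 98.5% and 100% of changes of 0.5, 1 and 2 log2 units, and for the change in the left-right difference over the same interval 22.4%, 79.1% and 100%. Of the 182 calls in the step 2 were false, and of the 143 in the change 9. The simulated noise was independent between genes and arrays, so a shift shared by many genes of an array was not covered. Left and right samples of the same number deviated together more than those of other numbers in every pair at E9.5 (r of 0.257, 0.317 and 0.071) and E12.5 (r of 0.27, 0.32 and 0.37). This did not hold in every pair at the later stages. Alternatives were the probe set rule, a filter on dim genes, housekeeping scaling, a replicate block, 1 ventricle only, other sets of arrays in the fit, stricter thresholds, leaving out each array, and, added after the data were seen, leaving out the 8 arrays that stood apart. Promoters came from RefSeq (GRCm38.p6). The number of arrays limits the precision.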

Additional observations from a re-analysis of the deposited data

Results flagged for a closer look

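In 13 replication genes the difference between the ventricles changed from E14.5 to E18.5 by a test of that change itself (limma, adjusted p under 0.05). Each value below is the change in the left ventricle minus the change in the right one, on the log2 scale, with 3 arrays per group. Hells, the chromatin remodeller, had -1.02 (adjusted p = 0.00408). Of the helicase ring, Mcm3 had -0.96, Mcm4 -0.83, Mcm2 -0.67, Mcm6 -0.60, Mcm5 -0.58 and Mcm7 -0.51. The loaders Cdc6 and Cdt1 had -0.92 and -0.66. Pole had -0.66, Rrm1 -0.66, Mcm10 -0.61 (-0.615 before rounding) and Lig1 -0.58. All 13 were negative, so the left ventricle lost more of each than the right over the interval. Of all genes 3.49% were called in this direction.

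Over the same interval the medians of the liver list were 7.60 in left and 5.30 in right ventricles at E14.5 and 7.59 and 5.10 at E18.5, and those of the visceral endoderm list 8.38 and 6.38, then 7.05 and 5.43. The group means, on which the fits rest, were 7.29 and 5.82, then 8.59 and 5.43 for the liver list. Those of the visceral endoderm list were 8.06 and 6.68, then 7.83 and 5.67. The left minus right gap of a list thus depends on whether means or medians are read. The part of these lists in the change was not tested. Without the 8 arrays that stood apart on marker lists, the 13 values ran from -0.90 to -0.32 and 1, that of Mcm3, was called.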

How the results depend on the processing

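Counts of called replication genes were recomputed under the alternatives, those on the most variable probe set, on the compared stages alone, on all 45 arrays as 15 groups, on 1 ventricle and on a 2-fold change for the steps between stages only. Of single-gene results 6813 kept their direction and side of the threshold over all settings, 621 lost and 133 gained a call, and 4 turned: the mean of all probe sets gave Mcm10 0.027 from stem cells to E7.5, and the most variable probe set gave Mcm6 -0.22 in that step, Orc2 0.30 from E14.5 to E18.5 and Rfc1 -0.24 (-0.245) from E9.5 to E12.5. The cause was not tested.

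A required 2-fold change left 0 genes from stem cells to E7.5, 2 to E8.5, 0 to E9.5, 2 to E12.5, 0 to E14.5, 2 to E18.5 and 0 to day 3. A threshold of 0.01 left 8 from E8.5 to E9.5, 2 from E12.5 to E14.5, 0 from E18.5 to day 3, 3 and 1 between ventricles at E14.5 and E18.5, 6 in the change between these and 3 in the F-test. Left ventricles alone gave 6, 0 and 10 calls in the steps from E8.5 to E9.5, E12.5 to E14.5 and E18.5 to day 3, and right ones alone 3 in the last. The mean of probe sets gave 8 from E8.5 to E9.5. The fit of all 45 arrays gave 12 from E12.5 to E14.5 and 12 from E18.5 to day 3, a fit of the compared stages alone 15 in the latter, and housekeeping scaling 3 in the former. Without the 8 arrays 7 were called from E8.5 to E9.5, 0 and 0 between ventricles at E14.5 and E18.5, 1 in the change and 0 in the F-test.

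Replicate numbers as a block gave 3 in the F-test and 9 in the change from E14.5 to E18.5 (lost calls had adjusted p from 0.0532 to 0.131), 6 at E14.5 and 3 at E18.5, and 28, 39, 14, 33, 6, 40, 5 and 42 in the 8 steps, so it moved no other count by over 1.5 times. Leaving out 1 array or 1 replicate number gave 0 to 6 from E12.5 to E14.5, 1 to 5 from E18.5 to day 3, 0 to 1 between ventricles at E9.5, 2 to 8 at E14.5, 1 to 10 at E18.5, 0 to 3 in the adult, 0 to 1 in the mean, 0 to 2 in the change to E14.5, 5 to 19 to E18.5, 0 to 3 to day 3 and 4 to 14 in the F-test. Signal over background limits Cdc6, Hells and Tyms in the adult, whose means of 3.53, 3.79 and 3.20 lie below 3.93, the level under which 25% of all values fall.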

Other observations

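Among the other nucleotide enzymes, outside the 44 genes, enzymes of nucleotide salvage and thymidylate synthesis fell after day 3. The change was -3.65 in Tk1, the thymidine kinase of S phase, -2.97 in Dck, the deoxycytidine kinase, -2.13 in Dctd, the deoxycytidylate deaminase, -1.87 in Shmt1 and -1.68 in Dtymk (all called by limma). Dguok, the mitochondrial deoxyguanosine kinase, rose by 0.33 in the same step. Among the E2F and pocket protein genes, Rbl1 fell by 2.93, and E2f8 and E2f7, the atypical repressors, changed by -2.63 and -2.28, while Rbl2 rose by 0.60, Lin52 by 0.39 and E2f4 by 0.38.

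In the change of the left-right difference from E14.5 to E18.5, 11 of 36 other replication factors were lower and 3 higher. Of 19 mitosis genes 5 were lower and 1 higher. Of 17 S phase kinases and licensing controls 4 were lower, of 18 E2F and pocket protein genes 3, and 0 were higher in either list. Of all genes 3.49% were lower and 3.89% higher. These counts were taken with all arrays and rest on the arrays that stood apart on marker lists. Without those arrays the genes called in this change, among all genes measured, went from 1342 to 42.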
